A study of Homo sapiens with 6 samples.

Results

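Oxidative phosphorylation is carried out by 5 multi-subunit complexes of the mitochondrial inner membrane. Complexes I and II pass electrons from NADH and succinate to coenzyme Q, complex III passes them on to cytochrome c, and complex IV reduces oxygen. The proton gradient that complexes I, III and IV build drives complex V, the ATP synthase. Most subunits are encoded in the nucleus, and glioma cells draw on this pathway beside glycolysis. The genes described here were chosen by symbol, namely NDUFA, NDUFB, NDUFC, NDUFS or NDUFV plus a digit, SDHA to SDHD, UQCR plus a letter or digit, CYC1, the COX4 to COX8 families and symbols starting with ATP5. Of 18417 genes with a probe set of their own, 82 matched, and 79 of these are protein-coding in the RefSeq table. They comprise 33 genes of complex I, 3 of complex II, 8 of complex III, 17 of complex IV and 18 of complex V. The other 3 matches, the pseudogenes UQCRBP1 and ATP5F1EP2 and the long non-coding RNA NDUFV1-DT, are given apart. A gene with several probe sets is represented by the one with the highest mean over the 6 arrays.

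The 6 arrays hold total RNA of U-87, an established human glioma line grown in serum-containing medium, 3 labelled P68 Knockdown (KD) and 3 labelled P68 Wild Type (WT). The labels name transfection with siP68 or NC, do not say that NC was given to the WT arrays, and do not say whether replicates were separate cultures, so p-values measure a spread between arrays that may be technical. P68 is the RNA helicase encoded by DDX5, and its log2 signal was 9.47, 9.79 and 9.91 on KD arrays 1, 2 and 3, against 10.09, 10.25 and 10.30 on WT arrays 1, 2 and 3. The targeted gene was thus lower on every KD array, at 71.2% of the WT signal (95% confidence interval 58.4% to 86.9%), but the difference did not pass an adjusted p of 0.05 (limma, adjusted p = 0.902). Of 8 markers of U-87 and glial cells, 6 lay above the dimmest 40% of genes by mean signal, VIM and GFAP among them, while CD44 and S100B were among the dimmest 40%, called dim from here on. The 11 measured markers of neurons, oligodendrocytes, leukocytes and endothelium summed to 46.26 to 46.64 on KD arrays and 45.14 to 45.99 on WT arrays (sum of log2 signals). CD68, a lysosomal protein of macrophages, moved most among them, at 5.22, 5.29 and 4.70 on KD arrays and 4.67, 4.46 and 4.58 on WT arrays. Of the 11, 5 were dim, the leukocyte markers PTPRC and AIF1 among them. The other 6 lay above the dimmest 40%, with the neuronal marker RBFOX3 brighter than GFAP. This cut thus does not by itself tell the cell types apart. The part of these markers in the values below was not tested.

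No subunit gene differed between KD and WT arrays after adjustment over all genes. In limma with Benjamini-Hochberg adjustment, 0 of 79 passed an adjusted p of 0.05, as did 0 of all 18417 genes (0%), and the adjusted p-values of the 79 ran from 0.902 to 1. At an unadjusted p under 0.05, 5 of the 79 were found, or 6.33%, against 5.09% of all genes. These were NDUFV2, COX5B and ATP5PB, lower in KD (3.80%, against 2.06% of all genes), and COX7A2L and COX4I1, higher in KD (2.53%, against 3.02%). The count was 3 without KD replicate 2 and 3 without WT replicate 3. The KD and WT arrays did not overlap for 8 of the 79 genes, which is 10.1% and the same share as in all genes (10.1%). NDUFA9, NDUFB4, NDUFC1 and COX5B lay lower in KD (5.06%, against 4.15% of all genes) and NDUFB8, COX7A2L, COX7B2 and COX6A2 higher (5.06%, against 5.98%). These shares of the subunit genes lay near those of all genes.

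The log2 difference (KD minus WT) had a median of -0.03 over the 79 genes and 0.01 over all genes. It was below 0 for 46 genes, above 0 for 31 and exactly 0 for 2 of them, so that 58.2% lay below 0, against 46.5% of all genes. The median turned to 0.01 without WT replicate 1. The 95% confidence interval of the difference stayed within a 1.5-fold change in either direction for 75 of the 79 genes and within a 2-fold change for all 79. Most genes on the arrays did the same, with 17168 of all 18417 within 1.5-fold and 18369 within 2-fold. The 4 genes whose interval reached past 1.5-fold were COX5B, COX4I1, ATP5PB and ATP5F1B. Of the 79 genes, 25 were among the dimmest 40% by mean signal, a range in which signal and background cannot be separated with these files.

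**Figure D1:**
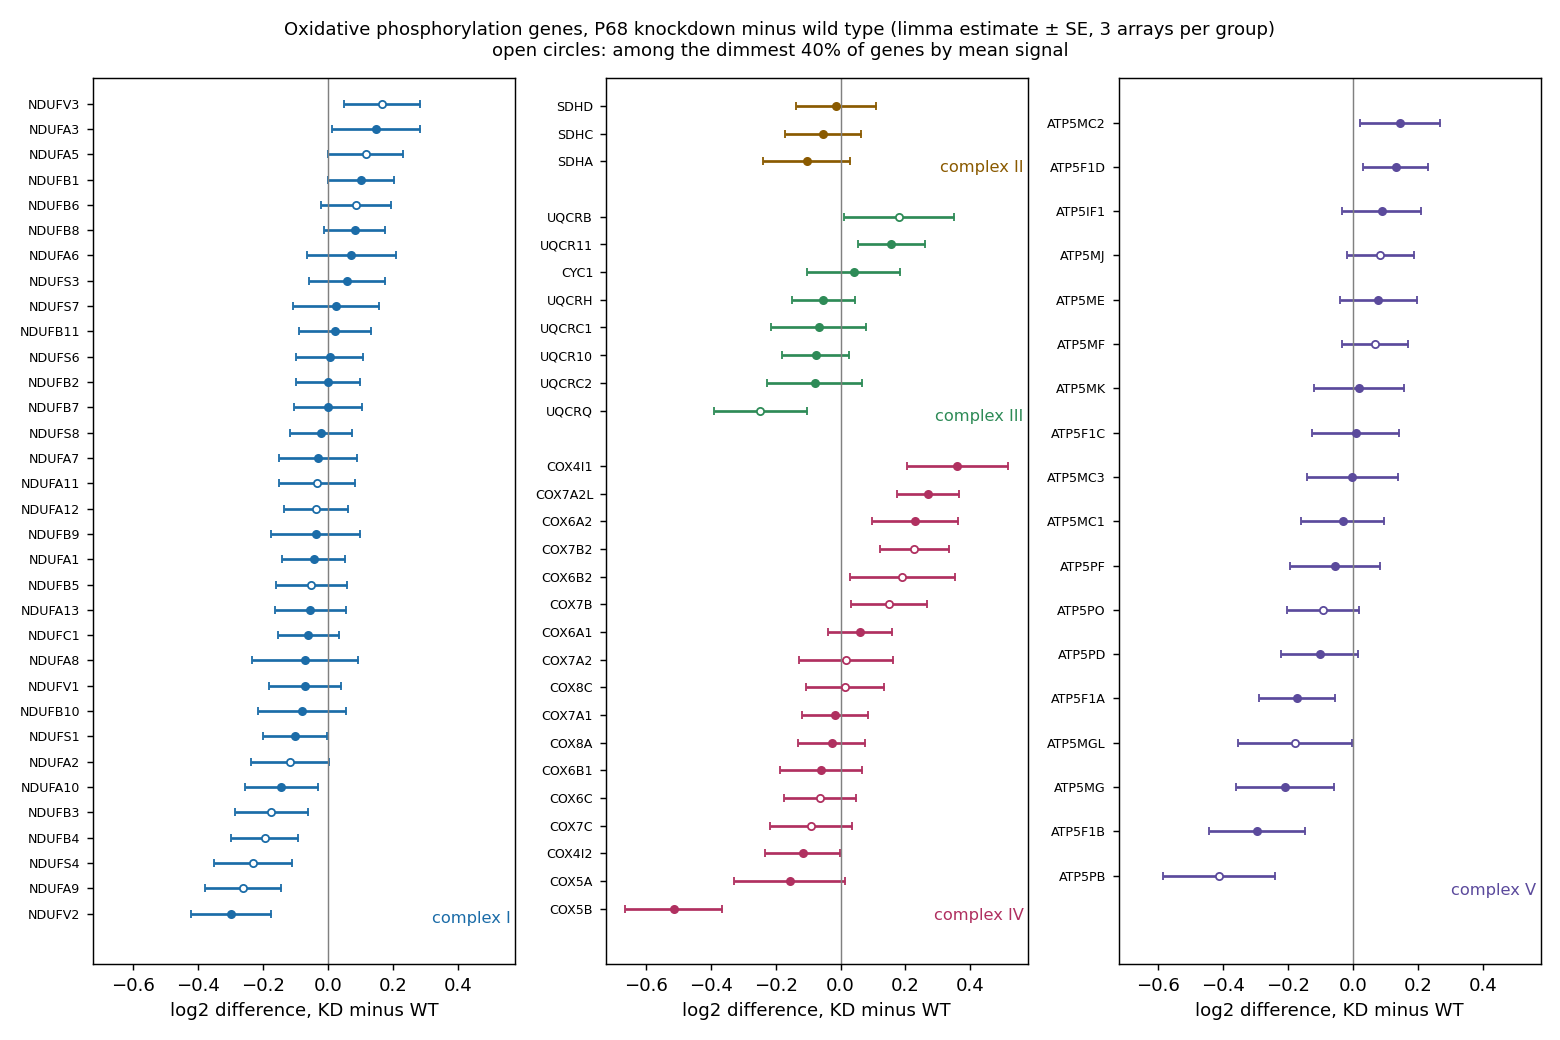
Log2 difference between P68 knockdown (KD) and P68 wild type (WT) for the 79 subunit genes, by complex (limma estimate, bars show the standard error, 3 arrays per group, open circles are among the dimmest 40% of genes). Differences run from -0.51 for COX5B to 0.36 for COX4I1, both of complex IV.

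**Figure D2:**
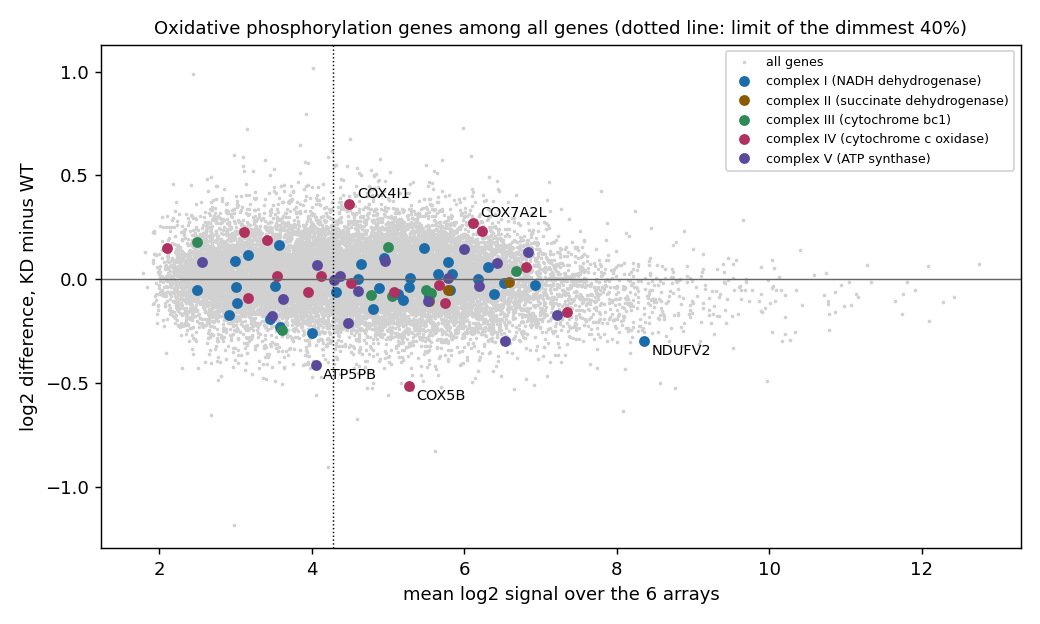
Log2 difference (KD minus WT) against the mean log2 signal over the 6 arrays, for all 18417 genes (grey) and the 79 subunit genes (coloured by complex). The subunit genes lie within the cloud of all genes, and Spearman's rho between signal and difference was -0.01 over the 79 genes and -0.07 over all genes, given as a description across genes of the same arrays.

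The promoters of the subunit genes are described here, a property that the choice of genes by symbol did not use. Nuclear respiratory factor 1 (NRF1) and the ETS-family factor GABP are known as activators of many respiratory chain genes, and motifs of both are shown because they recur in this set. Motifs picked for recurring in a set will be frequent in it, so their shares are a description and not a test of an excess. RefSeq promoters (GRCh38.p14) were found for 66 of the 79 genes, and the 250 bases before the start site were searched on both strands. The NRF1 motif, GCGC followed by any base and TGCGC, was present in 14 of 66 genes (21.2%), against 6.20% of all 27305 genes with a promoter and 8.72% of the protein-coding ones. The ETS motif CCGGAAG was present in 17 of 66 genes (25.8%), against 10.2% of all and 14.0% of protein-coding genes. The YY1 motif AAGATGGCG was present in 1 of 66 genes, or 1.52%, against 0.784% of all genes, and the TATA box motif TATAAA in 7 of 66, or 10.6%, against 13.0%. The NRF1 motif was found in 5 of 31 genes of complex I, 2 of 2 of complex II, 2 of 6 of complex III, 1 of 14 of complex IV and 4 of 13 of complex V. The median log2 difference (KD minus WT) was -0.02 over the 14 genes with the NRF1 motif and -0.03 over the 52 without it, and -0.05 over the 17 with the ETS motif and -0.02 over the 49 without it. The 120 bases before the start site are given for the flavoprotein and an anchor of complex II, the complex III gene with the most matches, and COX5B, the subunit gene with the largest difference. Capitals mark matches to the NRF1 or ETS motif on either strand, read 5′ to 3′ on the gene's strand (SDHA, chr5:218200-218319, plus strand; SDHD, chr11:112086753-112086872, plus strand; UQCR11, chr19:1605463-1605582, minus strand; COX5B, chr2:97645942-97646061, plus strand).
SDHA: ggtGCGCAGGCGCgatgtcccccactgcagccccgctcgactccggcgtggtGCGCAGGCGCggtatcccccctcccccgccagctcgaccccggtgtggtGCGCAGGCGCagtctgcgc
SDHD: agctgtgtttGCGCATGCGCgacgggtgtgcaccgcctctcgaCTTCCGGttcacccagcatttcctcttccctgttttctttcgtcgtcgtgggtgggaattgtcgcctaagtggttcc
UQCR11: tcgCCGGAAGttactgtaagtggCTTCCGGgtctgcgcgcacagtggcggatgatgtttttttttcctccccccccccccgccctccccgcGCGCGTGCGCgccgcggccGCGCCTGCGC
COX5B: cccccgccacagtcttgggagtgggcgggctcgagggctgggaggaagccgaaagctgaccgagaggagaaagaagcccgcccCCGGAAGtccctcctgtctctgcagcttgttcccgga
SDHA holds 4 NRF1 matches spaced 49 bases apart, of which 3 fall in the stretch shown. SDHD holds an NRF1 match that starts 110 bases and an ETS match that starts 77 bases before the start site. UQCR11 holds 2 of each, and COX5B a single ETS match that starts 37 bases before the start site. A match of letters is a description and not evidence of binding.

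Complex I, the NADH dehydrogenase, had 20 of 33 genes below 0, 11 above 0 and 2 at 0, with a median log2 difference of -0.04. Without WT replicate 1, on which 14 of the 33 genes had their highest signal, the median was 0.01. The electron input module takes electrons from NADH, and 7 of its 10 genes lay below 0 (median -0.05). NDUFV2, an iron-sulfur subunit of this module, had the largest difference of the complex, at 8.14, 8.11 and 8.37 on KD arrays 1 to 3, against 8.31, 8.56 and 8.64 on WT arrays 1 to 3. KD arrays 1 and 2 were the lowest of the 6, and KD array 3 lay above WT array 1. The log2 difference of NDUFV2 was -0.30 ± 0.12 (limma, SE, adjusted p = 0.902), or 81.4% of the WT signal (95% confidence interval 67.5% to 98.3%).

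A second NDUFV2 probe set also had KD arrays 1 and 2 lowest, at 7.90, 7.93 and 8.15 on KD arrays. On WT arrays this set was 7.97, 8.21 and 8.27. Its log2 difference of -0.16 ± 0.12 (SE) was smaller in size than the -0.30 of the set used. The unadjusted p of the second set was 0.22 in limma. Whether either set also reads a copy of NDUFV2 was not tested. NDUFV1, which binds NADH and the flavin cofactor, averaged 6.35 ± 0.08 in KD and 6.42 ± 0.16 in WT (SD, n = 3 each). Its log2 difference was -0.07, or 0.01 without WT replicate 1. NDUFS1, which carries several of the iron-sulfur clusters, averaged 5.15 ± 0.06 in KD and 5.25 ± 0.08 in WT (SD, n = 3 each), a log2 difference of -0.10 that was -0.06 without WT replicate 1. The accessory subunit NDUFS4 gave a log2 difference of -0.23 ± 0.12 (SE) and the accessory subunit NDUFV3 one of 0.17 ± 0.12 (SE), both among the dimmest 40%. Without WT replicate 2 they were -0.12 and 0.09, and NDUFV3 was also 0.09 without KD replicate 2. The other probe set of NDUFS4 gave a log2 difference of 0.01, so its probe sets did not move alike. That other set was dimmer, averaging 2.53 in KD and 2.52 in WT, against 3.48 and 3.71 for the set used. Whether a change could be seen at so low a signal was not tested.

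The quinone module hands electrons to coenzyme Q, and 3 of its 4 measured genes lay above 0 (median 0.04). Its iron-sulfur subunits NDUFS7 and NDUFS8 differed by 0.03 ± 0.13 and -0.02 ± 0.10 (log2 difference ± SE). Both signs turned with single arrays left out, NDUFS7 to -0.11 without KD replicate 1 and -0.03 without WT replicate 3, and NDUFS8 to 0.02 without KD replicate 2.

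Of 8 other genes, those of the NDUFA and NDUFC families in the membrane arm and NDUFA9 at the junction of the arms, 7 lay below 0 (median -0.06). NDUFA9 was 3.92, 3.78 and 3.94 on KD arrays, against 4.35, 4.04 and 4.03 on WT arrays. Its groups did not overlap, with a log2 difference of -0.26 ± 0.12 (SE) that was -0.16 without WT replicate 1, and it was among the dimmest 40%. NDUFA10 gave -0.14 ± 0.11 and NDUFA3 gave 0.15 ± 0.14 (log2 difference ± SE), with overlapping groups for both. NDUFA10 ran from -0.24 without WT replicate 3 to -0.09 without WT replicate 1, and NDUFA3 from 0.05 without WT replicate 2 to 0.29 without WT replicate 3. NDUFC1 had KD arrays at 4.32, 4.31 and 4.25, all just below WT arrays at 4.38, 4.33 and 4.35, a log2 difference of -0.06.

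The NDUFB genes of the membrane arm were split, with 5 of 11 below 0, 4 above 0 and 2, NDUFB2 and NDUFB7, at exactly 0 (median 0). NDUFB4, a dim gene, was 3.42, 3.26 and 3.39 on KD arrays and 3.61, 3.44 and 3.60 on WT arrays. Its log2 difference was -0.19 ± 0.10 (SE) with no overlap between groups. Its 2 probe sets held identical values, so the second adds nothing. NDUFB8 lay on the other side, at 5.82, 5.81 and 5.86 on KD arrays, all above WT arrays at 5.71, 5.79 and 5.74 (log2 difference 0.08). NDUFB3, also dim, gave -0.17 ± 0.11 and NDUFB1 gave 0.10 ± 0.10 (log2 difference ± SE), and groups overlapped for both. NDUFB3 ran from -0.26 without KD replicate 1 to -0.11 without KD replicate 2, and NDUFB1 was 0.05 without KD replicate 2. In complex I as a whole, 4 of 33 genes had groups that did not overlap, 3 lower and 1 higher in KD, or 12.1% against 10.1% of all genes.

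Complex II, the succinate dehydrogenase that also works in the citric acid cycle, was represented by 3 genes, and all 3 had differences below 0 (median -0.05). SDHA, the flavoprotein that oxidises succinate, was 5.76, 5.22 and 5.48 on KD arrays, against 5.59, 5.60 and 5.58 on WT arrays. KD array 1 was the brightest of the 6 for SDHA and KD array 2 the dimmest, so the KD arrays spread on both sides of the WT arrays. The log2 difference of SDHA was -0.10 ± 0.13 (SE), and without KD replicate 2 it was 0.03. SDHC, a membrane anchor, was 5.92, 5.55 and 5.81 on KD arrays and 5.84, 5.75 and 5.85 on WT arrays. SDHC showed the same spread, with a log2 difference of -0.05 ± 0.12 (SE) that became 0.05 without KD replicate 2. SDHD, the other anchor, was 6.53, 6.82 and 6.41 on KD arrays and 6.68, 6.58 and 6.54 on WT arrays. Here KD array 2 was the brightest, and the log2 difference of -0.01 ± 0.12 (SE) turned to 0.02 without KD replicate 1, 0.08 without KD replicate 3 and 0.03 without WT replicate 1. The median of the complex was 0.03 without KD replicate 2. Second probe sets of SDHC and SDHD gave log2 differences of -0.18 and -0.15. The second SDHC set was far dimmer, averaging 2.49 in KD and 2.66 in WT, against 5.76 and 5.81 for the set used. Whether the brighter set also reads copies of SDHC was not tested.

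Complex III, the cytochrome bc1 complex, had 5 of 8 genes below 0 and 3 above (median -0.06). Groups did not overlap for 0 of the 8, against 10.1% of all genes. CYC1, the cytochrome c1 that passes electrons to cytochrome c, was 7.01, 6.54 and 6.55 on KD arrays, against 6.78, 6.51 and 6.69 on WT arrays. Its log2 difference of 0.04 ± 0.14 (SE) became -0.12 without KD replicate 1 and -0.04 without WT replicate 2. The core protein UQCRC1 was 5.86, 5.33 and 5.40 on KD arrays and 5.59, 5.73 and 5.47 on WT arrays, and the core protein UQCRC2 was 5.27, 4.71 and 5.07 on KD arrays and 5.24, 5.07 and 4.98 on WT arrays. For CYC1, UQCRC1 and UQCRC2 alike, KD array 1 was the brightest of the 6. Among the small subunits, UQCRQ gave -0.25 ± 0.14, UQCR10 -0.08 ± 0.10, UQCRH -0.05 ± 0.10, UQCR11 0.16 ± 0.10 and UQCRB 0.18 ± 0.17 (log2 difference ± SE), with UQCRQ and UQCRB among the dimmest 40%. Single arrays carried much of these values, since UQCRQ gave -0.08 without KD replicate 3, UQCR10 -0.01 without WT replicate 1 and -0.13 without WT replicate 3, and UQCRH -0.02 without KD replicate 1 and also without WT replicate 3. UQCRB, which supports quinone binding, was 2.94, 2.60 and 2.23 on KD arrays and 2.59, 2.26 and 2.38 on WT arrays, and its log2 difference ran from 0.005 without KD replicate 1 to 0.36 without KD replicate 3. The median of the complex was 0.05 without KD replicate 2.

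Complex IV, the cytochrome c oxidase, held both extremes of the 79 genes, with 8 of 17 below 0 and 9 above (median 0.01). The median lay just below 0 with arrays centred on their median and after cyclic loess, and was -0.02 with the dimmest 40% of genes left out and also without WT replicate 2. Groups did not overlap for 4 of the 17 genes, 1 lower and 3 higher in KD, or 23.5% against 10.1% of all genes. COX5B, a nuclear-encoded structural subunit that binds zinc, was 4.82, 4.85 and 5.38 on KD arrays, against 5.63, 5.44 and 5.52 on WT arrays. All KD arrays were below all WT arrays, with KD array 3 close to WT array 2. The log2 difference of COX5B was -0.51 ± 0.15 (limma, SE, adjusted p = 0.902), or 70.1% of the WT signal (95% confidence interval 55.6% to 88.2%). It was -0.70 without KD replicate 3 and -0.42 without KD replicate 1. An exact permutation test (two-sided) gave p = 0.1, the smallest that 3 arrays against 3 allow.

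COX7A2L, which takes part in joining complexes III and IV into supercomplexes, was 6.21, 6.22 and 6.31 on KD arrays, against 5.99, 5.98 and 5.96 on WT arrays. The WT arrays lay within 0.03 of each other, and every KD array was above them. The log2 difference of COX7A2L was 0.27 ± 0.09 (limma, SE, adjusted p = 0.902), or 121% of the WT signal (95% confidence interval 104% to 139%), with p = 0.1 in the exact permutation test. With any 1 array left out it ran from 0.24 to 0.29. COX4I1, the widely expressed form of the largest nuclear-encoded subunit, was 4.70, 4.91 and 4.41 on KD arrays and 4.59, 4.24 and 4.11 on WT arrays. Here KD array 3 lay below WT array 1, and the log2 difference of 0.36 ± 0.16 (limma, SE, adjusted p = 0.902) ran from 0.24 without KD replicate 2 to 0.50 without WT replicate 1. COX4I2, its lung and low-oxygen isoform, averaged 5.69 ± 0.19 in KD and 5.80 ± 0.01 in WT (SD, n = 3 each), and its log2 difference of -0.12 ± 0.11 (SE) ran from -0.22 without KD replicate 2 to -0.04 without KD replicate 1.

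**Figure D3:**
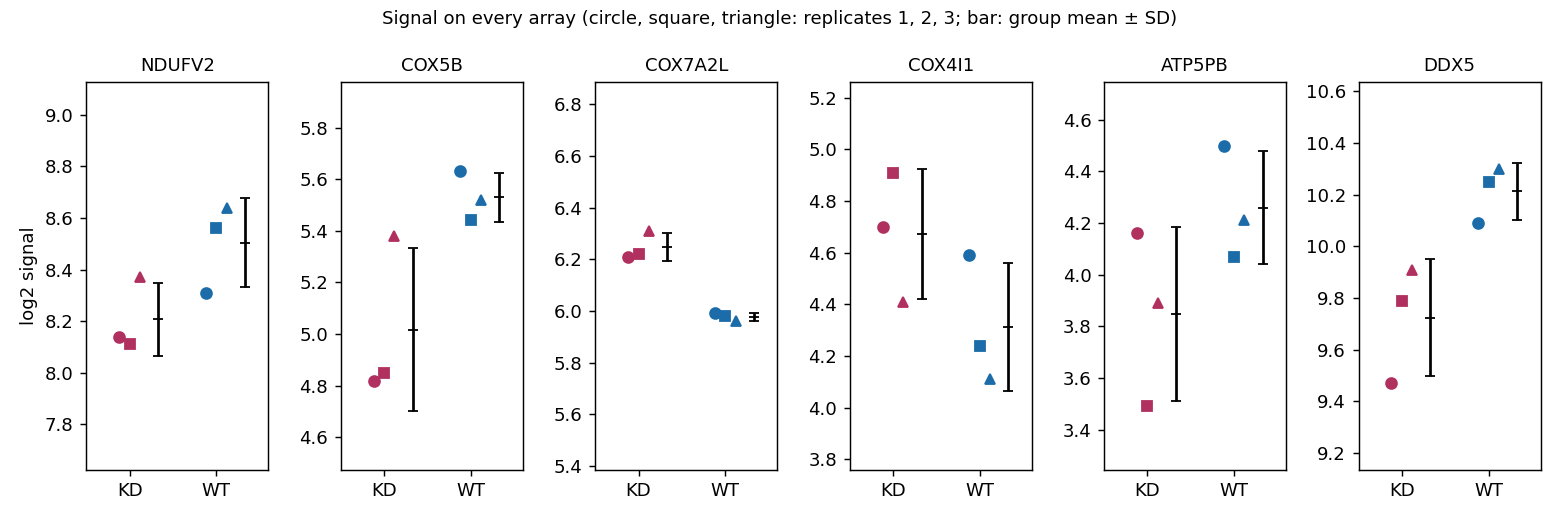
Log2 signal on every array of the 5 subunit genes with an unadjusted p under 0.05 and of DDX5, KD left and WT right in each panel (bars show the group mean ± SD, n = 3 each, all panels span the same log2 range). The groups are apart for COX5B, COX7A2L and DDX5 and overlap for NDUFV2, COX4I1 and ATP5PB.

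The other tissue isoforms of complex IV are known from muscle or testis. With COX4I2, which lay below 0, counted among them, 4 of the 6 tissue isoforms lay above 0 (median 0.10). Of the broadly expressed subunits, 4 of 10 did (median -0.04). COX6A2, the heart and muscle form, was 6.23, 6.65 and 6.17 on KD arrays and 6.13, 6.14 and 6.09 on WT arrays. Its groups did not overlap, but KD array 2 carried most of the log2 difference of 0.23 ± 0.13 (SE), which was 0.08 without that array. COX6A1, the broadly expressed partner, averaged 6.85 ± 0.10 in KD and 6.79 ± 0.03 in WT (SD, n = 3 each), and the difference of 0.06 was 0.003 without KD replicate 1 and 0.10 without KD replicate 2. COX7B2, a testis form, was 3.38, 3.16 and 3.14 on KD arrays and 3.05, 3.01 and 2.94 on WT arrays, a log2 difference of 0.23 ± 0.11 (SE) among the dimmest 40%, or 0.15 without KD replicate 1. COX6B2, a testis form, gave 0.19 ± 0.16 and COX7B gave 0.15 ± 0.12 (log2 difference ± SE), both dim. COX6B2 ran from 0.002 without KD replicate 2 to 0.36 without KD replicate 3, and COX7B from 0.09 without KD replicate 1 to 0.25 without KD replicate 3. The muscle form COX7A1, its broadly expressed partner COX7A2, COX6B1, COX8A and the testis form COX8C differed by 0.06 at most. Each of these 5 changed sign with at least 1 array left out, and COX7A2 and COX8C were dim. COX5A, COX6C and COX7C gave -0.16 ± 0.17, -0.06 ± 0.11 and -0.09 ± 0.13 (log2 difference ± SE), with COX6C and COX7C dim. COXFA4, formerly NDUFA4 and now counted with complex IV, falls outside the choice by symbol. It was dim and gave -0.09 ± 0.11 (SE), and its paralog COXFA4L2 gave -0.02 ± 0.11 (SE).

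Complex V, the ATP synthase, had 10 of 18 genes below 0 and 8 above (median -0.02). Groups did not overlap for 0 of the 18, against 10.1% of all genes. The median was 0.06 without WT replicate 1 and 0.04 without KD replicate 3. In the catalytic F1 head, ATP5F1B, the catalytic beta subunit, was 6.61, 6.05 and 6.49 on KD arrays, against 6.80, 6.67 and 6.57 on WT arrays. KD array 2 stood lowest by far, KD array 1 lay above WT array 3, and the log2 difference of -0.30 ± 0.15 (SE) was -0.13 without KD replicate 2. ATP5F1A, the alpha subunit, was 6.98, 7.07 and 7.35 on KD arrays and 7.33, 7.35 and 7.24 on WT arrays. For ATP5F1A it was KD arrays 1 and 2 that were low, with a log2 difference of -0.17 ± 0.12 (SE) that ran from -0.28 without KD replicate 3 to -0.10 without KD replicate 1. With array weights ATP5F1A was -0.09. The delta subunit ATP5F1D gave 0.13 ± 0.10 and the rotor subunit ATP5F1C gave 0.007 ± 0.13 (log2 difference ± SE), so 2 of the 4 head genes lay on each side of 0.

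All 4 genes of the peripheral stalk, which holds the head in place, lay below 0 (median -0.10). ATP5PB, its long membrane-anchored subunit, was 4.16, 3.49 and 3.89 on KD arrays and 4.50, 4.07 and 4.21 on WT arrays. KD array 1 lay above WT array 2, and the log2 difference of -0.41 ± 0.17 (limma, SE, adjusted p = 0.902), or 75.1% of the WT signal (95% confidence interval 57.7% to 97.7%), was -0.24 without KD replicate 2. ATP5PB was among the dimmest 40%. ATP5PD, ATP5PO and ATP5PF gave -0.10 ± 0.12, -0.09 ± 0.11 and -0.06 ± 0.14 (log2 difference ± SE), with ATP5PO dim. ATP5PD was -0.02 without WT replicate 1, -0.03 without KD replicate 2 and -0.18 without KD replicate 1.

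The 3 genes ATP5MC1, ATP5MC2 and ATP5MC3 encode the same mature subunit c of the proton-conducting ring, and differed by -0.03 ± 0.13, 0.14 ± 0.12 and -0.003 ± 0.14 (log2 difference ± SE). ATP5MC2 ran from 0.07 without KD replicate 2 to 0.24 without KD replicate 1. ATP5MC1 turned to 0.07 without WT replicate 1 and 0.06 without KD replicate 3, and ATP5MC3 to 0.14 without WT replicate 1, 0.07 without KD replicate 3 and 0.02 without KD replicate 2. Of 6 small membrane subunit genes, 4 lay above 0 (median 0.04), and ATP5MG, which takes part in dimer formation, gave -0.21 ± 0.15 (SE), or -0.04 without KD replicate 2 and -0.35 without KD replicate 1. Its paralog ATP5MGL was dim and gave -0.18 ± 0.17 (SE), which ran from -0.35 without WT replicate 1 to -0.06 without WT replicate 2. ATP5IF1, the inhibitor that blocks ATP hydrolysis by the enzyme, was 4.93, 5.19 and 4.91 on KD arrays and 5.10, 4.83 and 4.84 on WT arrays. Its log2 difference of 0.09 ± 0.12 (SE) was just below 0 without KD replicate 2.

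The level of each complex was also followed array by array. For each gene the deviation from its own mean over the 6 arrays was taken, and the median over a complex was compared between arrays. In complex II it was 0.13, -0.24 and -0.06 on KD arrays 1, 2 and 3, against 0.05, -0.01 and 0.04 on WT arrays 1, 2 and 3. In complex III it was 0.17, -0.03 and -0.09 on KD arrays and 0.10, -0.003 and -0.04 on WT arrays. In complex V it was 0.09, -0.08 and -0.04 on KD arrays and 0.10, -0.06 and -0.002 on WT arrays. KD array 1 and WT array 1 were thus the high arrays of complexes III and V, and the groups overlapped in all 5 complexes. In complex IV it was 0.10, -0.05 and -0.06 on KD arrays and -0.02, -0.10 and -0.007 on WT arrays, and in complex I it was -0.002, -0.04 and -0.02 on KD arrays and 0.09, 0.01 and -0.05 on WT arrays. Over all genes the same medians lay between -0.01 and 0.02 on the 6 arrays.

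**Figure D4:**
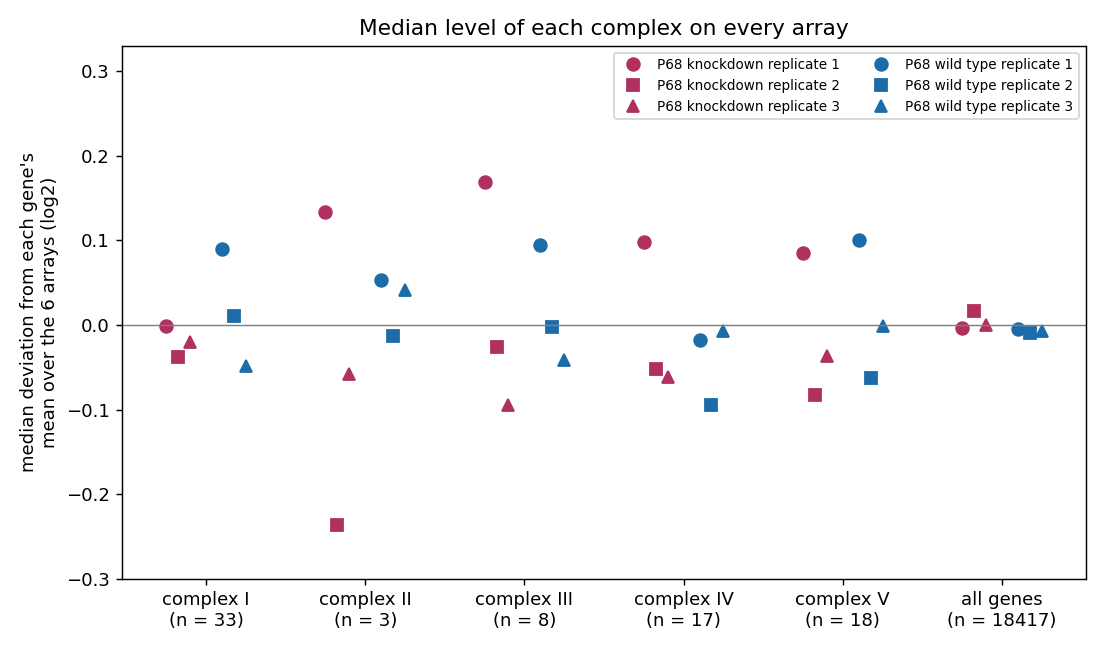
Median deviation of each complex from its genes' means over the 6 arrays, for KD arrays (red, left) and WT arrays (blue, right), with all genes at the far right (log2 scale, one symbol per array). KD array 1 is at 0.17 and KD array 2 at -0.03 in complex III, and KD array 2 is at -0.24 in complex II, while all genes stay between -0.01 and 0.02.

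Of the 79 genes, 26 had their highest signal on WT array 1 (32.9%, against 14.7% of all genes) and 24 on KD array 1 (30.4%, against 17.5%). The lowest signal fell on KD array 2 for 21 genes (26.6%, against 18.7% of all genes) and on WT array 1 for 4 (5.06%, against 14.8%). The median gap between KD arrays 1 and 2 was 0.10 over the 79 genes and -0.03 over all genes (KD 1 minus KD 2), and 52 of the 79 were brighter on KD array 1. The median gap between WT arrays 1 and 2 was 0.09 over the 79 genes and 0.01 over all genes (WT 1 minus WT 2), with 56 of 79 brighter on WT array 1. The median SD between replicates was 0.14 in KD and 0.11 in WT over the 79 genes, and 0.14 in KD and 0.12 in WT over all genes. The closest 2 arrays over the 79 genes were KD array 3 and WT array 3, which correlated with r = 0.994, against 0.980 for KD arrays 1 and 2 (across genes, which are not independent replicates). KD array 3 and WT array 3 were also the closest pair over all probe sets, where KD arrays 1 and 2 correlated least of all pairs. The closeness of KD array 3 and WT array 3 was thus not particular to the subunit genes.

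Several of these genes can share probe signal with copies. The RefSeq table names 188 pseudogenes after 45 of the 79 genes. These include 18 after COX6C, 12 each after NDUFA5 and NDUFB4, and 8 each after COX5B, ATP5PB, ATP5MG and ATP5MC1. Of genes with 2 probe sets, NDUFV2 has 1 named pseudogene, SDHC 5, COX6A1 6 and SDHD 7. How much of each signal came from copies was not tested. Of the 79 genes, 7 had 2 probe sets of their own. Another 9 probe sets carried a matching symbol beside others and were left out by the choice. Of these, the pair with SDHA and 3 SDHA pseudogenes gave log2 differences of 0 and -0.05. The one with SLMO2-ATP5E and ATP5F1E averaged 5.89 ± 0.21 in KD and 5.77 ± 0.23 in WT, and the one with UQCRHL, UQCRH and GNA13 averaged 6.47 ± 0.21 in KD and 6.59 ± 0.12 in WT (SD, n = 3 each). The pseudogene ATP5F1EP2, 8.09, 7.57 and 7.90 on KD arrays and 8.01, 7.93 and 8.12 on WT arrays, gave a log2 difference of -0.17 ± 0.14 (SE). The pseudogene UQCRBP1 was 3.32, 3.12 and 3.20 on KD arrays, all below WT arrays at 3.53, 3.42 and 3.68, while UQCRB itself lay above 0. NDUFV1-DT, transcribed beside NDUFV1, averaged 3.73 ± 0.11 in KD and 3.55 ± 0.08 in WT (SD, n = 3 each). All 3 were tested in the same limma fit, with an adjusted p of 0.902 for UQCRBP1 and NDUFV1-DT and 0.912 for ATP5F1EP2, and UQCRBP1 and NDUFV1-DT were dim.

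Other genes of the pathway gave no calls either, with 0 past an adjusted p of 0.05 in limma in each of the lists that follow. At an unadjusted p under 0.05 there were 1 assembly factor (2.17% of 46), 1 gene of coenzyme Q synthesis (7.69% of 13), 1 citric acid cycle enzyme (8.33% of 12) and 3 mitochondrial ribosomal proteins (4.29% of 70), against 5.09% of all genes. Among the 18 biogenesis and 18 import genes there were 0. Assembly factors insert cofactors and join subunits, and 23 of 46 measured lay below 0 and 23 above (median log2 difference -0.002). The factor with an unadjusted p under 0.05 was NDUFAF2 of complex I, at 4.38, 4.54 and 4.26 on KD arrays, all below WT arrays at 4.57, 4.67 and 4.68. By complex, 8 of 16 factors of complex I, 2 of 3 of complex II, 4 of 6 of complex III, 8 of 18 of complex IV and 1 of 3 of complex V lay below 0. The smallest p belonged to SDHAF4 for complex II, UQCC3 for complex III, COX20 for complex IV and ATPAF2 for complex V. Their log2 differences were 0.08, 0.13, 0.28 and 0.22, and SDHAF4 was dim. Of 13 genes of cytochrome c and coenzyme Q synthesis, 6 lay on each side of 0 and 1 at 0. The mobile carrier cytochrome c, encoded by CYCS, was 4.88, 5.05 and 4.99 on KD arrays, all above WT arrays at 4.74, 4.83 and 4.83, a log2 difference of 0.17 ± 0.10 (SE). COQ3, a methyltransferase of coenzyme Q synthesis, gave -0.26 ± 0.10 (SE) and was dim.

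Of 18 regulators of mitochondrial biogenesis and mitochondrial DNA expression, 12 lay above 0 (median 0.05). NRF1, the factor whose motif is given above, averaged 5.15 ± 0.18 in KD and 5.11 ± 0.03 in WT, and the coactivator PPRC1 had the smallest p of the list, at 4.82 ± 0.08 in KD and 4.66 ± 0.11 in WT (SD, n = 3 each). Citric acid cycle enzymes lay mostly on the low side, with 10 of 12 below 0 (median -0.09). SUCLG2 of succinyl-CoA synthetase gave -0.43 ± 0.18 (SE) and was dim, and DLD, the lipoamide dehydrogenase, gave -0.21 ± 0.10 (SE) with no overlap between groups. The 70 mitochondrial ribosomal protein genes, which serve synthesis of the mitochondrially encoded subunits, lay mostly on the other side, with 43 above 0 and 27 below (median 0.02, close to that of all genes). Of 18 mitochondrial import genes, 9 lay below 0, 8 above and 1 at 0 (median -0.03). The 13 mitochondrially encoded subunits were not analysed here.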

How the data were processed

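The deposited table holds log2 signals of 29096 probe sets on 6 Affymetrix arrays, made with RMA, per the submitters' processing notes. RMA equalises the signal distribution over arrays, which hides any shift common to most genes. The program that ran RMA is not given in the sources used here. Of the probe sets, 19460 carried 1 gene symbol in the platform annotation, 1754 several and 7882 none. Among probe sets of the same gene, the brightest on average was kept, which left 18417 genes.

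KD and WT were compared with limma 3.58.1 in R 4.3.3 (lmFit and eBayes, group as the only term, two-sided, no filter), with Benjamini-Hochberg adjustment over all genes at 0.05. The fit was also run on simulated data with added shifts, most of them larger than any difference of the subunit genes. That run does not show that differences of the size seen here would be found. The number of arrays limits the precision (median standard error of a difference 0.12). A gene is called dim if among the dimmest 40% by mean signal. Gene lists and named genes (smallest p per complex, isoform pairs, cofactor-binding and catalytic subunits, the largest positive difference, and the smallest p per list) were chosen with earlier results of these data known. Grouping by role within a complex, the motifs, the assembly factors as 1 list, the mitochondrial ribosomal proteins and NRF1, DLD, CYCS and the other genes outside this rule were chosen after values were seen. Same-numbered arrays were not treated as pairs, since their deviations correlated over all probe sets with r = 0.19, -0.04 and 0.10. These values do not show that the subunit genes lack a shared replicate effect. Replicate 1 was the highest array for 30.4% (KD) and 32.9% (WT) of them. A replicate block was run as an alternative. Alternatives are given in the closing section. Promoters and pseudogene names are RefSeq's (GRCh38.p14), while no build is stated for the array values.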

Additional observations from a re-analysis of the deposited data

How the results depend on the processing

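No gene passed the adjusted threshold under 9 alternatives or after dropping any 1 of the 6 arrays. These alternatives changed the scaling (arrays centred on their median, cyclic loess, quantile normalisation repeated), the genes (dimmest 40% left out, mean over a gene's probe sets) or the test (array weights, robust fit with an intensity trend, replicate block, threshold of 0.01). Subunit genes at an unadjusted p under 0.05 numbered 4 to 7 under the others, with 7 under the replicate block, and 3 to 7 with 1 array left out. With 1 array left out, medians ran from -0.07 to 0.01 over all 79 genes, -0.05 to 0.01 for complex I, -0.13 to 0.03 for II, -0.091 to 0.053 for III, -0.02 to 0.07 for IV and -0.09 to 0.06 for V. The median over the 79 was -0.05 with arrays centred. DDX5 ran from -0.58 to -0.36. Of 47 named subunit genes, 32 kept their sign throughout. Under the alternatives signs turned for COX8C (-0.0033 centred and -0.0016 after cyclic loess), COX7A2 (-2.5e-04 after cyclic loess), SDHD (2.8e-04 after repeated quantile normalisation) and COX6B1 (0.014 with array weights). With 1 array left out they turned for these and 11 more, within -0.24 to 0.03 for SDHA, -0.13 to 0.052 for SDHC, -0.13 to 0.075 for SDHD, -0.13 to 0.038 for COX6B1, -0.07 to 0.01 for COX7A1, -0.12 to 0.17 for COX7A2, -0.087 to 0.033 for COX8A, -0.053 to 0.12 for COX8C, -0.11 to 0.07 for ATP5MC1, -0.10 to 0.14 for ATP5MC3, -0.0033 to 0.18 for ATP5IF1, -0.14 to 0.013 for NDUFV1, -0.11 to 0.12 for NDUFS7, -0.045 to 0.015 for NDUFS8 and -0.12 to 0.12 for CYC1. The cause of these changes was not tested.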

Other observations

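TOMM22, a receptor of the mitochondrial import channel, stood apart on 1 array. Its log2 signal was 8.25, 6.62 and 8.42 on KD arrays 1, 2 and 3, against 8.45, 8.27 and 8.48 on WT arrays 1, 2 and 3. The log2 difference of -0.64 ± 0.37 (limma, SE, adjusted p = 0.902) rests on KD array 2. Of the 79 subunit genes, 21 had their lowest signal on this array (26.6%, against 18.7% of all genes). Another 11 had their highest signal on it (13.9%, against 25.5%). A tie between these genes and TOMM22 was not tested. The other 17 measured import genes were not singled out.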
